A study of Mus musculus with 28 samples.

Results

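The comparison set the hypothalamus of mice without a working copy of *Hdc* (*Hdc* KO) against that of wild-type mice (WT). Its members were the 5 hypothalamus RNA-seq libraries of these 2 genotypes, chosen by the tissue and genotype labels, of 28 libraries in the series: 3 WT libraries, numbered 1, 2 and 3, and 2 libraries labelled *Hdc* ko, numbered 7 and 8 and called KO 7 and KO 8 here. Levels are given as CPM, the reads on a gene scaled to the size of its library, with TMM factors applied, and a gene was tested where it exceeded 1 CPM before TMM factors in 2 or more of these 5, which 13938 of 29878 listed genes did. The 3 heterozygous (Het) hypothalamus libraries, numbered 4, 5 and 6, are given beside them without a test, and libraries from dorsal and ventral striatum serve to ask whether a difference was particular to the hypothalamus.

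All mice were adult males of 2 to 3 months on a C57Bl/6 background, the KO allele having been backcrossed onto that strain from the line in which it was made. The KO is constitutive, so the mice carried the altered allele from conception and in every tissue. The labels do not say that libraries of 1 genotype came from separate preparations, and the number in a library's name is taken as its mouse. The p-values thus measure a spread between libraries. The main fit estimated that spread within 12 groups of genotype and region over all 28 libraries, not from these 5 alone. Read counts on genes ranged from 3861785 to 4901109 per library (median 4395780), and mitochondrial transcripts took 28.55% to 32.69% of them. Replicates differed by more than sampling noise, with a chi-square divided by its degrees of freedom of 2.78 to 3.95 between WT libraries and 4.98 between KO 7 and KO 8.

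Histidine decarboxylase, the enzyme that *Hdc* encodes, makes histamine from the amino acid histidine. In the brain, histamine neurons sit in the tuberomammillary nucleus of the posterior hypothalamus and send axons to most other regions, where the amine promotes wakefulness and curbs feeding. The hypothalamus around them holds small groups of neurons that each make their own peptide hormones, so a whole dissected block mixes many cell types, and in such tissue fewer cells of a type and less RNA per cell cannot be told apart.

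The tissue carried peptide markers of hypothalamic neurons in every library. *Hcrt*, the wake-promoting peptide orexin, read at least 46.7 CPM in each of the 5 libraries, and *Pmch*, the melanin-concentrating hormone precursor, read 71.7 to 115 CPM. Of 31 transcription factors listed for hypothalamic nuclei, 28 passed the filter on low values, as did 13938 of 29878 genes. The filter asks for only 2 of the 5 libraries, and *Lhx8* passed through WT 1 and WT 3 alone.

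*Hdc* itself did not pass the test. It read 15.2, 18.9 and 16.8 CPM in WT, 11.7 and 14.1 CPM in KO, and 14.6, 21.7 and 15.1 CPM in Het libraries. Both KO libraries lay under every WT library, and the Het libraries lay above both KO libraries, 2 of them just under the WT range. The mean was 16.9 ± 1.88 CPM in WT (SD, n = 3) and 12.9 ± 1.64 CPM in KO (SD, n = 2), a log2 fold change of −0.40 (SE 0.21) with an adjusted p of 0.8405 by the likelihood ratio test of edgeR. An exact two-sided permutation test over the 5 libraries gave p = 0.2, the smallest value that the 10 possible assignments allow.

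Outside the hypothalamus the counts on *Hdc* ran the other way. The 6 WT libraries of dorsal striatum, ventral striatum and motor cortex held 0 to 6 reads each on the gene, the 8 Het libraries 17 to 33, and the 6 KO libraries 29 to 51. Expressed as log2, KO over WT was 4.39 in dorsal striatum (adjusted p = 1.213e-11, edgeR) and 4.21 in ventral striatum (adjusted p = 9.971e-21), and the difference between the hypothalamus and the mean of both striatal regions was −4.70 (SE 0.56, adjusted p = 3.129e-25). These are counts over the whole gene (chr2:126593667-126619299, minus strand, GRCm38). They do not show which exons the reads lie on, so they check neither the deletion nor the labels.

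Across the 13938 genes tested, 21 were called at an adjusted p under 0.05, or 0.151%, with 19 higher in KO (0.136%) and 2 lower (0.0143%). The called genes fell into 2 sets by the position of each KO library against the WT range. In 10 genes both KO libraries lay on one side of all 3 WT libraries and within 2-fold of each other, after 0.5 CPM was added to each, which 21.6% of all genes tested did. *Lhx8* is among the 10 because of that addition, since its plain CPM in KO 8 was 0.49 times that in KO 7. In the other 11 genes, all higher, KO 8 carried most or all of the difference: its CPM was 3.08 to 12.7 times that of KO 7. Among all genes, 0.215% had both KO libraries on one side but over 2-fold apart, 41.1% had only 1 KO library outside the WT range and 10.7% had KO libraries on opposite sides. The median log2 fold change over all genes was 0.02. At an unadjusted p under 0.05 there were 844 genes (6.06%), 539 of them higher (3.87%) and 305 lower (2.19%).

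**Figure D1:**
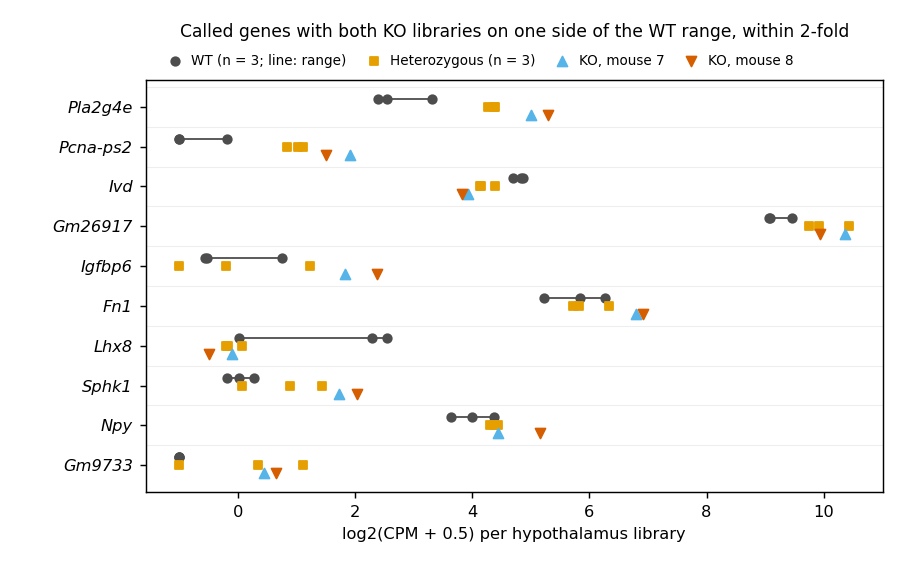
Level of the 10 called genes in which KO 7 and KO 8 lay on one side of the WT range and within 2-fold of each other, after 0.5 CPM was added to each. The x axis is log2(CPM + 0.5) and each point is 1 hypothalamus library (grey circles WT with their range as a line, orange squares Het, blue and red triangles KO). For *Pla2g4e*, *Pcna-ps2*, *Ivd* and *Gm26917* all 3 Het libraries also lie outside the WT range, on the KO side.

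*Pla2g4e* gave the smallest p of the comparison. It encodes a cytosolic phospholipase of the group that acts on membrane phospholipids to make N-acyl lipids, the precursors of some endocannabinoid-like molecules. It read 9.41, 4.77 and 5.35 CPM in WT, 31.5 and 38.8 CPM in KO, and 18.8, 20.4 and 20.2 CPM in Het libraries. The 3 genotypes did not overlap, and the Het libraries lay between the other two. Its log2 fold change in KO was 2.44 (SE 0.21, adjusted p = 3.976e-29, edgeR), and it was 3.28 in dorsal and 3.10 in ventral striatum (adjusted p = 1.237e-23 and 1.571e-31). The difference between hypothalamus and striatum was −0.75 (adjusted p = 0.5995).

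*Ivd*, which encodes the mitochondrial enzyme isovaleryl-CoA dehydrogenase of leucine breakdown, fell. It read 28.8, 25.6 and 28.0 CPM in WT, 14.8 and 13.6 CPM in KO, and 17.3, 20.4 and 17.1 CPM in Het libraries. Again no 2 genotypes overlapped, with the Het libraries between WT and KO. The log2 fold change was −0.95 (SE 0.16, adjusted p = 4.786e-06, edgeR). In dorsal and ventral striatum it was −0.61 and −0.62, which did not pass the test there (adjusted p = 0.1884 and 0.1575). In hypothalamus the call was lost without KO 8.

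Both genes lie on the chromosome of *Hdc*: *Pla2g4e* at chr2:120166412-120245335 (minus strand) lies 6.35 Mb from it, and *Ivd* at chr2:118861954-118882909 (plus strand) lies farther out on the same side. Their promoter sequences, 250 bases before to 50 bases after the start in RefSeq on GRCm38.p6, are shown because these are the protein-coding genes among the 10 evenly shared calls in which both KO libraries and all 3 Het libraries stood apart from WT.
Pla2g4e, chr2:120245286-120245585, minus strand: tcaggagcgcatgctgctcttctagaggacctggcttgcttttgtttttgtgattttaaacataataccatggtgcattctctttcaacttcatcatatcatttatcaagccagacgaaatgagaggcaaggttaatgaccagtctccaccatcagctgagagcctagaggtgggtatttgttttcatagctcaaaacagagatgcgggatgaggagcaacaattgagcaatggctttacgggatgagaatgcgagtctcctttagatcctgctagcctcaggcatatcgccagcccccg
Ivd, chr2:118861744-118862043, plus strand: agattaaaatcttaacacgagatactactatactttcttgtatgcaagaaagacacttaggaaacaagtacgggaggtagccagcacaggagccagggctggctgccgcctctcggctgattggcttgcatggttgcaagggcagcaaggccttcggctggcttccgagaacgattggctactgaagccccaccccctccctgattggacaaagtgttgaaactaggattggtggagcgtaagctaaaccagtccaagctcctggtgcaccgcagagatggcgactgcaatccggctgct
Neither window held any of 5 short motifs searched on both strands, so no letters are in capitals. The motifs were TATAAA, held by 13.6% of 32851 RefSeq promoters of the same length, CACGTG (7.15%), TGACGTCA (1.79%), TGAGTCA (5.2%) and GGGCGG (35.7%).

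*Pcna-ps2*, a processed pseudogene of *Pcna* on chr19:9283380-9284160 (plus strand), was near 0 in WT and present in every KO and Het library. The WT libraries held 0.384, 0 and 0 CPM, the KO libraries 3.26 and 2.34 CPM and the Het libraries 1.29, 1.67 and 1.55 CPM. In reads this was 2 in the 3 WT libraries together against 26 in the 2 KO libraries, a KO over WT ratio of 23.3 with an exact 95% counting interval of 5.84 to 203 (adjusted p = 1.282e-06, edgeR). The gene was called in the same direction in dorsal and ventral striatum (adjusted p = 9.101e-05 and 1.339e-05), where the WT libraries held 0 and 1 reads in all. In hypothalamus the call was lost with DESeq2. *Pcna-ps2* passed the filter on low values only through the 2 KO libraries in which it was high.

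Reads on this pseudogene are hard to tell from reads on *Pcna*, the sliding clamp of DNA replication. The 781 bases of the pseudogene aligned to the 786-base coding sequence of *Pcna* with 775 identical (99.23%), and 467 of 732 windows of 50 bases, the read length, occurred unchanged in a *Pcna* transcript (63.8%). A stretch of 60 bases with 2 of the 6 substitutions is shown. Within the aligned bases, a read must cover such a base for its sequence to match 1 of these transcripts alone. The counts hold only uniquely mapped reads. Capitals mark the substituted bases, A144G and A177C, counted from 1 at the first base of the *Pcna* coding sequence, with the base of *Pcna* first.
*Pcna*, bases 118 to 177: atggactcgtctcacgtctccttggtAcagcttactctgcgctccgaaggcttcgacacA
*Pcna-ps2*, bases 117 to 176: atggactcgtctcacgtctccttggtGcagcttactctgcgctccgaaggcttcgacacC
*Pcna* lies 5.63 Mb from *Hdc* on chromosome 2. It read 12.7, 13.1 and 9.28 CPM in WT and 8.69 and 6.39 CPM in KO, with a log2 fold change of −0.63 that did not pass the test (adjusted p = 0.564, edgeR). Both its KO libraries were under the WT range while those of the pseudogene were above it.

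*Gm26917* was the most abundant of the called genes. It is a lincRNA annotated at chr17:39843013-39846341 (plus strand), on a stretch of ribosomal RNA precursor sequence, and the reads had been filtered against ribosomal RNA before alignment. It read 539, 532 and 705 CPM in WT, 1312 and 978 CPM in KO, and 968, 1384 and 862 CPM in Het libraries. KO and Het libraries overlapped each other, and all 5 lay above WT. The log2 fold change was 0.95 (SE 0.18, adjusted p = 8.595e-05, edgeR), against 0.20 and 0.07 in dorsal and ventral striatum. The difference between regions did not pass the test (0.82, adjusted p = 0.09128).

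These 4 genes, *Pla2g4e*, *Ivd*, *Pcna-ps2* and *Gm26917*, were also the only calls of edgeR's quasi-likelihood test. All 3 Het libraries lay outside the WT range on the KO side in these 4 of the 10 genes, in 2 libraries for 4 more, and in 1 library for the other two. The 10 genes were picked for the position of their KO libraries, so genes that share this position are the like set. Among all genes tested, both KO libraries were on one side of the WT range in 3041. In 589 of these, or 4.23% of all genes, the 3 Het libraries were on the same side. Whatever the KO libraries did, the 3 Het libraries were above the WT range in 6.22% of all genes and below it in 5.14%. All these counts rest on the same 3 WT libraries.

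*Fn1*, which encodes the extracellular matrix protein fibronectin, rose. It read 37.0, 76.2 and 56.9 CPM in WT, 110 and 120 CPM in KO, and 80.7, 52.2 and 56.03 CPM in Het libraries. The KO libraries were close together and above WT, and 2 of 3 Het libraries were inside the WT range. The log2 fold change was 1.02 (SE 0.24, adjusted p = 0.0135, edgeR). In dorsal and ventral striatum it was 0.45 and 0.27, short of the threshold. The calls of *Fn1*, *Igfbp6* and *Sphk1* were each lost in 6 alternatives, that of *Lhx8* in 8 and that of *Gm9733* in 9, the quasi-likelihood test, DESeq2 and the fit without KO 8 among them.

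*Npy*, the neuropeptide that drives feeding from neurons of the arcuate nucleus, rose by less than 2-fold. It read 11.9, 15.5 and 20.2 CPM in WT, 21.3 and 35.4 CPM in KO, and 21.2, 19.3 and 20.2 CPM in Het libraries. KO 7 was just above the highest WT library, while KO 8 stood clear of it. The log2 fold change was 0.83 (SE 0.21, adjusted p = 0.03356, edgeR), and its difference from striatum was 1.04 (adjusted p = 0.01882). The call was lost in 9 of the alternative analyses, among them the one without KO 8.

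*Igfbp6*, *Sphk1* and *Gm9733* rose from levels near the filter. Like *Pcna-ps2*, *Sphk1* and *Gm9733* passed it only through the 2 KO libraries in which they were high. *Igfbp6* exceeded 1 CPM in WT 2 but in no other WT library, so it too needed a KO library to pass. With no filter on low counts *Gm9733* lost its call. *Igfbp6*, a binding protein of insulin-like growth factors, read 0.192, 1.19 and 0.178 CPM in WT and 3.04 and 4.69 CPM in KO (log2 fold change 2.79, adjusted p = 0.002852). *Sphk1*, the kinase that makes sphingosine phosphate, read 0.384, 0.511 and 0.714 CPM in WT and 2.82 and 3.62 CPM in KO (log2 fold change 2.52, adjusted p = 0.01518). *Gm9733*, an uncharacterized protein-coding gene, had no read in WT and 0.869 and 1.06 CPM in KO, which is at least 5.38-fold higher when WT is set to 3 counts in all, the limit that a count of 0 allows (adjusted p = 0.03356, all by edgeR). Their Het libraries were uneven, between 0 and 1.84 CPM for *Igfbp6*, 0.556 and 2.21 CPM for *Sphk1* and 0 and 1.66 CPM for *Gm9733*. Each of the 3 calls rests on 36 KO reads or fewer.

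*Lhx8*, a LIM-homeodomain transcription factor of ventral forebrain cholinergic and GABA neurons, was the second gene that fell. It read 4.41, 0.511 and 5.35 CPM in WT, 0.435 and 0.213 CPM in KO, and 0.369, 0.556 and 0.388 CPM in Het libraries. WT 2 was thus close to the KO and Het libraries, and WT 1 and WT 3 carried the difference. The WT over KO ratio was 10.4 (56 reads against 3, with an exact 95% counting interval that starts at 3.38), with an adjusted p of 0.01423 by edgeR, and the call was lost without WT 1 or WT 3. *Lhx6*, a related factor of the same lineage, read 6.91, 2.39 and 10.2 CPM in WT and 2.61 and 5.54 CPM in KO, again with WT 2 lowest (adjusted p = 0.8718).

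The 11 genes driven by KO 8 were all higher there, and 8 of them were also called in the contrast between hypothalamus and striatum. That contrast contains the same hypothalamus difference, and so the same KO 8 library, and is no separate support. These 8 genes had more reads in each WT dorsal striatum library than in any WT hypothalamus library, for *Ano3* 2902 and 3440 against 60 to 100. None of the 11 was called in dorsal or ventral striatum, and none kept its call under the quasi-likelihood test. In 7 of the 11 no Het library was above the WT range, in 3 of them 1 was, and in *Egr3* all 3 were.

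**Figure D2:**
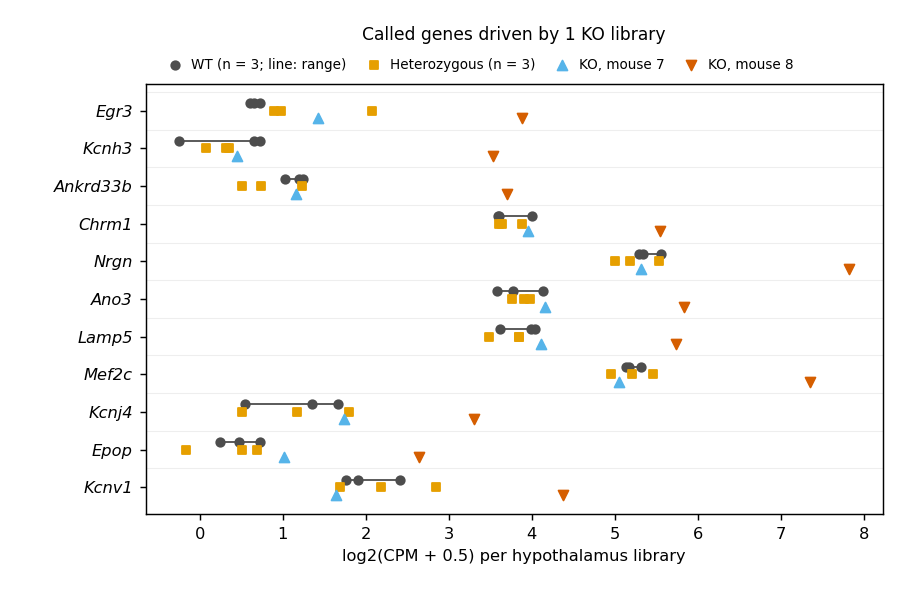
Level of the 11 called genes driven by 1 KO library. The x axis is log2(CPM + 0.5) and each point is 1 hypothalamus library (grey circles WT with their range as a line, orange squares Het, blue and red triangles KO). For every gene the red triangle of KO 8 stands to the right of all other libraries, while the blue triangle of KO 7 lies in or near the WT range.

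*Nrgn* encodes neurogranin, a calmodulin-binding protein of the dendrites of forebrain neurons. It read 40.1, 38.9 and 46.6 CPM in WT, 39.3 and 226 CPM in KO 7 and KO 8, and 35.8, 45.9 and 31.6 CPM in Het libraries. KO 7 fell inside the WT range. The fitted log2 fold change of 1.67 (SE 0.36, adjusted p = 0.004442, edgeR) became −0.09 without KO 8.

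*Mef2c*, a transcription factor of excitatory neurons, read 34.5, 35.6 and 39.4 CPM in WT and 32.6 and 162 CPM in KO 7 and KO 8 (log2 fold change 1.42, adjusted p = 0.007446). *Kcnv1*, a silent subunit of voltage-gated potassium channels, read 3.26, 2.90 and 4.82 CPM in WT and 2.61 and 20.2 CPM in KO (1.64, adjusted p = 0.04776). In both genes KO 7 was under every WT library and KO 8 above every one, and the fitted change turned to −0.16 for *Mef2c* and −0.48 for *Kcnv1* without KO 8.

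In 3 more genes KO 7 was inside the WT range. *Kcnh3*, a voltage-gated potassium channel of the forebrain, read 1.15, 0.341 and 1.07 CPM in WT and 0.869 and 11.1 CPM in KO (log2 fold change 2.79, adjusted p = 4.786e-06). *Ankrd33b*, an ankyrin repeat gene, read 1.54, 1.87 and 1.78 CPM in WT and 1.74 and 12.6 CPM in KO (2.03, adjusted p = 0.002153). *Chrm1*, a muscarinic acetylcholine receptor, read 11.7, 11.6 and 15.5 CPM in WT and 14.99 and 46.2 CPM in KO (1.24, adjusted p = 0.002572).

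In the other 5 genes KO 7 was above WT and KO 8 over 2-fold above KO 7. *Egr3*, an immediate early transcription factor that neuronal firing induces, read 1.15, 1.02 and 1.07 CPM in WT and 2.17 and 14.3 CPM in KO (log2 fold change 2.90, adjusted p = 1.282e-06). *Ano3*, a member of the anoctamin family, read 11.5, 17.0 and 13.2 CPM in WT and 17.4 and 56.6 CPM in KO (1.41, adjusted p = 0.005121). *Lamp5*, a membrane protein of endosomes in forebrain neurons, read 15.9, 11.8 and 15.3 CPM in WT and 16.7 and 53.0 CPM in KO (1.28, adjusted p = 0.006239). *Kcnj4*, an inwardly rectifying potassium channel, and *Epop*, a partner of Polycomb complexes, rose from at most 2.68 and 1.15 CPM in WT to 9.37 and 5.75 CPM in KO 8 and 2.82 and 1.52 CPM in KO 7.

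Genes on a list for cortical excitatory neurons were also high in KO 8. The list shares *Nrgn* with the 11 genes. It was chosen with earlier results of these data known, so it is not a separate result. The list held 8 genes, of which *Emx1* was under the filter and 7 were tested. KO 8 was above every WT library in all 7 and KO 7 in 1, against 31.4% and 25.9% of all genes, and the median difference from the WT mean was 2.43 log2 units in KO 8 and −0.08 in KO 7. The summed level of the 7 genes was 118.3 to 128.5 CPM in WT, 112.2 to 128.7 CPM in Het, 120.8 CPM in KO 7 and 435.5 CPM in KO 8. KO 8 thus stood alone among the 8 hypothalamus libraries in the sum, to which *Nrgn* gave 226 CPM in KO 8. *Cux2*, a factor of upper cortical layers, hardly took part, with 60.1, 68.2 and 57.5 CPM in WT, 65.2 and 73.3 CPM in KO and up to 80.3 CPM in Het libraries.

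Among the members, *Tbr1*, a transcription factor of deep cortical layers, read 11.3, 5.45 and 10.7 CPM in WT and 5.65 and 61.5 CPM in KO 7 and KO 8. *Neurod6*, a factor of cortical and hippocampal excitatory neurons, read 1.34, 1.02 and 1.25 CPM in WT and 1.74 and 16.4 CPM in KO. Neither was called (adjusted p = 0.7054 and 0.07198, edgeR), and of the 7 genes only *Nrgn* was. *Slc17a7*, the vesicular glutamate transporter of cortical neurons, which is on another list, read 14.2, 33.7 and 19.3 CPM in WT and 19.8 and 196 CPM in KO (adjusted p = 0.5423). The part of these genes in the 11 calls was not tested.

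**Figure D3:**
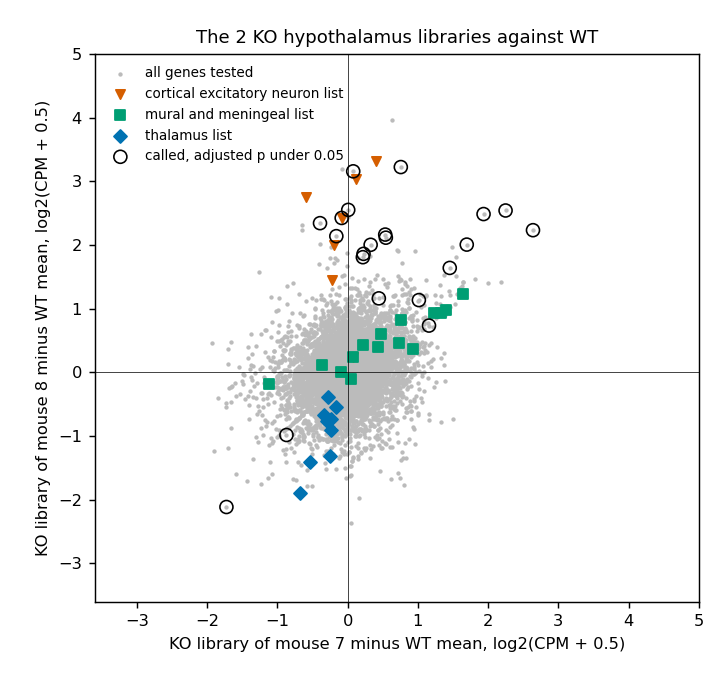
Each point is 1 of the 13938 genes tested, plotted by its difference from the WT mean in KO 7 (x axis) and in KO 8 (y axis), both on the log2(CPM + 0.5) scale. The cortical list (red triangles) has medians of −0.08 on the x axis and 2.43 on the y axis, the mural and meningeal list (green squares) runs along the diagonal, the thalamus list (blue diamonds) has medians of −0.28 and −0.77, and circles mark the 21 called genes.

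The 10 genes on which KO 7 and KO 8 differed most, among those whose WT libraries spanned less than 1 log2 unit, were in part the same genes: *Nrgn*, *Egr3*, *Ankrd33b* and *Kcnv1*, with *Neurod6* and *Tbr1* of the cortical list. The others were *Mlip* (12.2 CPM in KO 7 and 92.4 CPM in KO 8), *Myl4* (0.217 and 5.11 CPM), *Gng8* (3.69 and 0.213 CPM) and *Col6a5* (2.17 and 0 CPM). KO 8 was over 2-fold above KO 7 and above every WT library in 249 genes (1.79%), and KO 7 was over 2-fold above KO 8 and above WT in 156 (1.12%).

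The calls differed with the KO library left out. Without KO 8, 3 genes were called, *Pla2g4e*, *Pcna-ps2* and *Gm26917*, and in all 3 the KO 8 library lay on the same side of WT. Without KO 7, 134 genes were called, 122 of them higher, and KO 7 lay on the same side of the WT range in 50 of them, inside the range in 68 and on the other side in 16. Those 134 calls included 4 of the 7 cortical genes. Each of these fits leaves 1 KO library, which is assumed to vary like the other groups.

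Genes of the thalamus, which borders the hypothalamus, were low in KO 8 in particular. KO 8 was below every WT library in 9 of 9 genes tested and KO 7 in 3, against 25.1% and 23.6% of all genes, and the median log2 fold change was −0.57. None of the 9 was called, and 5 were lower at an unadjusted p under 0.05 (2.19% of all genes). *Gbx2*, a homeodomain factor of thalamic neurons, read 5.37, 6.48 and 9.28 CPM in WT and 4.13 and 1.49 CPM in KO (log2 fold change −1.32, adjusted p = 0.4386, edgeR). *Prkcd*, a protein kinase C enriched in thalamic relay neurons, read 58.7, 129 and 88.1 CPM in WT and 73.2 and 34.9 CPM in KO. The summed level was 763.2 to 1276 CPM in WT, 724.8 to 1478 CPM in Het, 810.9 CPM in KO 7 and 632.1 CPM in KO 8, so only KO 8 was outside the range of the 6 WT and Het libraries.

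Most genes of a list of vessel-wall and meningeal cells lay higher in both KO libraries. Of 15 tested, 11 had both KO libraries above every WT library (12% of all genes did) and 0 had both below. None was called, 5 were higher at an unadjusted p under 0.05 (3.87% of all genes), and the median log2 fold change was 0.58. *Ptgds*, the prostaglandin synthase abundant in the meninges, read 124, 361 and 349 CPM in WT, 661 and 495 CPM in KO, and 331, 109 and 161 CPM in Het libraries (log2 fold change 1.06, adjusted p = 0.5053, edgeR). *Igf2*, a growth factor of the meninges and choroid plexus, read 20.9, 47.4 and 54.1 CPM in WT and 89.3 and 72.8 CPM in KO (0.99, adjusted p = 0.5988). Both spread widely within WT, where WT 1 was lowest.

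The collagens of the same list followed. *Col1a2* read 5.37, 9.37 and 9.63 CPM in WT and 13.7 and 14.3 CPM in KO, and *Col3a1* read 0.384, 2.22 and 1.78 CPM in WT and 5.00 and 3.62 CPM in KO. The 4 exceptions were vessel-wall genes, *Acta2* and *Myh11* of smooth muscle and *Kcnj8* and *Abcc9* of pericytes. Other vessel-wall genes of the list, *Pdgfrb*, *Rgs5* and *Tagln*, had both KO libraries above every WT library. *Rgs5* read 114, 117 and 110 CPM in WT and 120 and 135 CPM in KO. *Kcnj8* read 2.88, 1.53 and 1.78 CPM in WT and 0.652 and 1.70 CPM in KO, and *Acta2* read 11.9, 8.52 and 10.2 CPM in WT and 10.4 and 9.37 CPM in KO. The summed level of the 15 genes was 344.7 to 631.5 CPM in WT, 334.7 to 617.5 CPM in Het and 993.2 and 824.2 CPM in KO. *Fn1* and *Igfbp6*, 2 of the called genes, were above WT in the same 2 libraries, and the part of these cells in their calls was not tested.

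**Figure D4:**
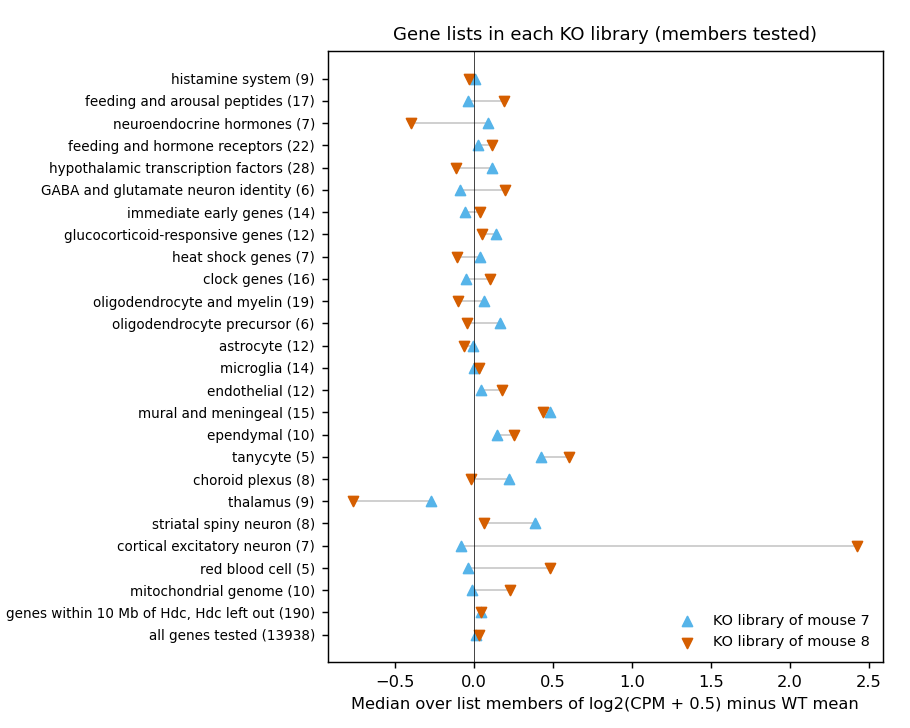
Median over the tested members of each gene list (number in brackets) of the difference from the WT mean in KO 7 (blue) and KO 8 (red), on the log2(CPM + 0.5) scale. Most lists lie near 0 in both libraries. In KO 7 and KO 8, the mural and meningeal list is at 0.48 and 0.44 and the tanycyte list at 0.42 and 0.60. The thalamus list is at −0.28 and −0.77, and the cortical list is at −0.08 in KO 7 and 2.43 in KO 8.

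No gene of the histamine pathway passed the test, and the quasi-likelihood test and DESeq2 called 0 and 1 members over all lists. Of 9 genes tested, *Hdc* included, none was called, none passed an unadjusted p of 0.05, and the median log2 fold change was 0.04. *Hnmt*, which methylates histamine to end its action, read 8.83, 8.52 and 8.21 CPM in WT and 9.78 and 7.88 CPM in KO. *Hrh3*, the autoreceptor that limits histamine release, read 71.4 to 89.6 CPM in WT and 73.7 and 79.9 CPM in KO. *Hrh1*, a postsynaptic receptor linked to arousal, was lower in both KO libraries, 11.9, 9.54 and 13.7 CPM in WT against 9.13 and 7.88 CPM, with a log2 fold change of −0.46 (adjusted p = 0.936, edgeR). *Slc18a2*, the transporter that loads monoamines into vesicles, read 45.5, 57.8 and 33.4 CPM in WT and 63.0 and 44.1 CPM in KO. *Aoc1* and *Hrh4* had at most 2 and 0 reads in a library and were not tested.

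Among 17 feeding and arousal peptides tested, *Npy* alone was called. *Nts*, the peptide neurotensin, had both KO libraries below WT, at 15.7, 9.20 and 17.7 CPM in WT and 5.87 and 7.45 CPM in KO (log2 fold change −1.08, unadjusted p = 0.000299, adjusted p = 0.1158, edgeR), and Het libraries read 8.29, 10.2 and 7.56 CPM. *Agrp*, which is made by the same arcuate neurons as *Npy*, read 0.768, 1.53 and 1.96 CPM in WT and 0.652 and 1.06 CPM in KO, with KO 7 below and KO 8 inside the WT range. *Pomc*, the precursor of satiety peptides of the arcuate nucleus, read 5.57, 5.79 and 4.64 CPM in WT and 7.39 and 3.83 CPM in KO. The median of the list was 0.24.

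The 7 neuroendocrine genes tested had no call, none at an unadjusted p under 0.05, and a median of −0.13. *Crh*, the releasing hormone of the stress axis, read 1.34, 0.852 and 1.78 CPM in WT and 0.217 and 0.852 CPM in KO (log2 fold change −1.25, adjusted p = 0.8405, edgeR). *Oxt*, oxytocin, read 17.5, 14.3 and 23.0 CPM in WT and 15.9 and 5.96 CPM in KO, so that KO 8 alone was low. Of 22 receptors for feeding signals and hormones none was called, nor at an unadjusted p under 0.05 (median 0.16). *Hcrtr2*, an orexin receptor that tuberomammillary neurons carry, read 2.69, 3.07 and 3.03 CPM in WT and 6.30 and 4.05 CPM in KO (0.81, adjusted p = 0.8547).

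The remaining lists held few differences. The 28 hypothalamic transcription factors had *Lhx8* as their 1 call, a lower one (0.0143% of all genes were), and a median of 0.16. At an unadjusted p under 0.05, 2 of them were lower, *Lhx8* and *Lhx9*, and 0 higher (2.19% and 3.87% of all genes were). The 14 immediate early genes tested had *Egr3* as their 1 call, a higher one (0.136% of all genes were), and a median of 0.07. *Fos*, *Junb* and *Egr1* were not called. At an unadjusted p under 0.05, 2 of the 14 were higher, *Egr3* and *Arc*, and 1 was lower, *Junb*. In *Junb* both KO libraries lay below every WT library, opposite to *Egr3* (log2 fold change −1.11, unadjusted p = 0.02869, adjusted p = 0.7363, edgeR). *Arc*, a cytoskeletal protein of active synapses, read 9.98, 11.9 and 9.99 CPM in WT and 13.3 and 21.3 CPM in KO (log2 fold change 0.70, adjusted p = 0.6486, edgeR). It was lower in KO in dorsal striatum (−1.13, adjusted p = 0.03534), and the difference between regions passed the test (1.69, adjusted p = 0.004268). In dorsal striatum *Arc* held 223 and 624 reads in the WT libraries and 165 and 225 in the KO ones, so 1 WT library carried most of that fall.

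No gene was called among 6 genes of GABA and glutamate neuron identity (median 0.04), 12 glucocorticoid-responsive genes (0.06), 7 heat shock genes (−0.03) and 16 clock genes (0.03). At an unadjusted p under 0.05, 1 identity gene and 2 glucocorticoid-responsive genes were higher, and no heat shock or clock gene was. *Clock* itself read 102, 106 and 96.5 CPM in WT and 106 and 110 CPM in KO. Nor was any called among 19 oligodendrocyte and myelin genes, whose median was −0.05 and of which 1 was lower at an unadjusted p under 0.05. KO 8 was below every WT library in 10 of the 19 (52.6%, against 25.1% of all genes) and above in 0, and KO 7 was below in 4 and above in 6. *Mbp*, the myelin basic protein, read 1286 to 1465 CPM in WT and 1452 and 1363 CPM in KO, inside the WT range, and *Ermn*, a late myelin gene, read 62.0, 63.6 and 58.3 CPM in WT and 45.6 and 44.3 CPM in KO (log2 fold change −0.45, adjusted p = 0.584, edgeR).

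Lists of other brain cells gave medians near 0 and no call: 6 oligodendrocyte precursor genes (0.06), 12 astrocyte genes (−0.01), 14 microglia genes (0.03), 12 endothelial genes (0.13), 10 ependymal genes (0.15), 8 choroid plexus genes (0.09) and 8 genes of striatal spiny neurons (0.19). At an unadjusted p under 0.05, 1 astrocyte and 1 microglia gene were lower. The 5 tanycyte genes tested all had a fitted change above 0 (54.1% of all genes did), with a median of 0.42, no call and 1 higher at an unadjusted p under 0.05, and *Rax*, which defines these cells, had at most 2 reads. Of 11 pituitary genes 2 were tested, with a median of −0.51, and *Prl* and Gh had at most 1 and 0 reads in a library. The 5 red blood cell genes had a median of 0.12 and the 10 mitochondrial genes one of 0.09, without a call or an unadjusted p under 0.05. Reads of the paired globin genes can be shared between near-identical copies, so single values of these are uncertain.

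Genes near *Hdc* on chromosome 2 were examined as a group. Within 10 Mb of *Hdc*, 190 other genes were tested. Of these, 2 were called higher, *Pla2g4e* and *Lamp5* (0.136% of all genes were), and 1 lower, *Ivd*. Both KO libraries lay above WT in 29 genes (15.3%, against 12% of all genes) and below in 20 (10.5%, against 9.78%), and the median log2 fold change was 0.03. At an unadjusted p under 0.05, 12 were higher and 9 lower (3.87% and 2.19% of all genes were).

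**Figure D5:**
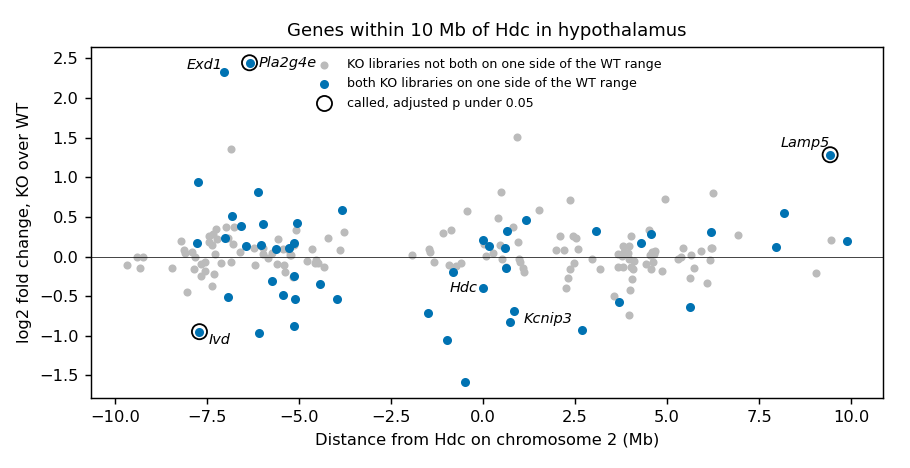
Log2 fold change of KO over WT (y axis) for *Hdc* and the 190 other genes tested within 10 Mb of it, by distance in Mb (x axis). Blue points have both KO libraries on one side of the WT range, and circles mark the called genes *Pla2g4e* (2.44), *Ivd* (−0.95) and *Lamp5* (1.28); most other points lie near 0.

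The 3 window genes with the next smallest p-values, chosen after their values were seen, missed the threshold. *Kcnip3*, a calcium sensor that binds potassium channels and lies 0.84 Mb from *Hdc*, read 30.9, 27.6 and 34.4 CPM in WT and 20.9 and 17.5 CPM in KO, with Het libraries at 30.2, 25.6 and 34.3 CPM (log2 fold change −0.69). *Exd1*, a gene of the piRNA pathway on the far side of *Ganc*, read 0.192, 0.682 and 0.714 CPM in WT, 3.48 and 2.13 CPM in KO and 1.11, 1.30 and 2.33 CPM in Het libraries (2.32). *Ganc*, an alpha-glucosidase 6.13 Mb from *Hdc*, read 8.45, 8.18 and 7.85 CPM in WT, 13.5 and 15.3 CPM in KO and 10.9, 13.5 and 11.2 CPM in Het libraries (0.82). In *Exd1* and *Ganc* the Het libraries were all above WT, and in *Kcnip3* 2 of 3 were inside the WT range. *Exd1* also passed the filter on low values only through the 2 KO libraries.

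Among abundant genes with both KO libraries outside the WT range, 5 in each direction were named by size. After *Gm26917* and *Fn1*, the higher ones were *Ptgds*, *Igf2* and *Nptx1*, a pentraxin of excitatory synapses, which read 96.5, 100 and 98.8 CPM in WT and 112 and 194 CPM in KO (log2 fold change 0.63). The lower ones were *Zic1*, *Gatm*, *Malat1*, *Tcf7l2* and *Podxl2*, none of them called. *Malat1*, a nuclear long noncoding RNA, read 1447, 1078 and 1161 CPM in WT, 832 and 863 CPM in KO, and 901, 976 and 897 CPM in Het libraries (−0.54, adjusted p = 0.5053, edgeR). *Gatm*, the first enzyme of creatine synthesis, read 98.8, 120 and 103 CPM in WT and 74.3 and 73.3 CPM in KO (−0.54, adjusted p = 0.4952). *Zic1*, a zinc-finger factor of medial brain regions, read 67.8, 67.5 and 83.7 CPM in WT and 60.8 and 37.9 CPM in KO, and *Tcf7l2*, a Wnt effector of the thalamus list, read 262, 404 and 325 CPM in WT and 257 and 204 CPM in KO.

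The KO difference in hypothalamus was itself set against that in striatum, with libraries from mice of the same numbers. In 20 genes (0.143% of all genes) the difference between regions passed the test, 12 with a higher and 8 with a lower change in hypothalamus. Genes called for the hypothalamus difference bring that same difference into this contrast. After *Hdc*, the smallest p-values by edgeR belonged to *Kcnh3* (3.11, adjusted p = 6.989e-06) and *Egr3* (3.05, adjusted p = 2.406e-05), both driven by KO 8. Of the 10 genes in which both KO libraries moved evenly, *Npy* and *Lhx8* were the 2 whose change differed from that in striatum, and *Pla2g4e*, *Pcna-ps2* and *Gm9733* were called in hypothalamus, dorsal striatum and ventral striatum alike.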

How the data were processed

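RNA of 4 brain regions was sequenced as single-end reads of 50 bases from cDNA made with a kit that does not mark strand, so overlapping antisense genes cannot be told apart. Per the labels and the study's methods, the authors trimmed reads (Trimmomatic 0.32), removed ribosomal reads (Bowtie2 2.2.3), aligned to GRCm38 (STAR 2.3.1z8) and deposited raw counts of uniquely mapped reads on exons (HTSeq 0.6.1p1), without normalization. Rows that name no gene were left out, and 48.88% to 54.22% of tallied reads lay on genes. Groups and mouse numbers came from the labels. Names came from GENCODE on GRCm38 for 28842 of 29878 genes.

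The count model was edgeR 4.0.16 in R 4.3.3 (glmFit, glmLRT, TMM), with 1 mean for each of 12 groups over 28 libraries and Benjamini-Hochberg adjustment over 13938 genes. CPM uses the TMM-scaled library size, and log2 ratios of single libraries add 0.5 CPM. Genes on which KO libraries differ by over 2-fold, or of which 1 is outside the WT range, count as driven by 1 library. Alternatives were the quasi-likelihood test, DESeq2 1.42.0, other scalings, filters and libraries. The scripts were tested on simulated data in which 200 genes were changed. The likelihood ratio test called 168 of these and 15 unchanged genes, and the quasi-likelihood test 159 and 5. The changed genes had a WT mean above 1 CPM and the same change in both KO libraries. These figures thus do not cover genes driven by 1 KO library or genes near 0 in WT.

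Members and lists were chosen with earlier results of these data known. Named genes were *Hdc*, all calls, up to 10 called against striatum, 5 abundant genes (50 CPM or more) in each direction, the 10 on which KO libraries differed most, and members of 25 lists. Kiss1 and Lhb were not analysed here. Not every list member is given by name. Intervals are exact binomial ones and cover counting error only.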

Additional observations from a re-analysis of the deposited data

Results flagged for a closer look

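The change between KO and WT differed between hypothalamus and the mean of dorsal and ventral striatum in 20 genes, by the likelihood ratio test of edgeR on the difference of log2 fold changes (hypothalamus minus striatum). It was higher in hypothalamus for *Kcnh3* (3.11), *Egr3* (3.05), *Ankrd33b* (2.34), *Nrgn* (2.07), *Itpka* (1.93), *Kcnj4* (1.89), *Arc* (1.69), *Ano3* (1.63), *Lamp5* (1.57), *Igfbp4* (1.55), *Chrm1* (1.52) and *Npy* (1.04). In 10 of these 12 KO 8 was over 2-fold above KO 7; the exceptions were *Arc* (13.3 and 21.3 CPM in KO 7 and KO 8) and *Npy* (21.3 and 35.4 CPM).

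It was lower in hypothalamus for *Hdc* (−4.70), *Hsbp1l1* (−4.59), *Lhx8* (−3.47), *Prlr* (−3.44), *Vwa5b1* (−2.38), *Cbln2* (−1.90), *Nelfb* (−1.16) and *Plcl1* (−0.84). Apart from *Lhx8*, none of these was called in hypothalamus alone, and 4 were higher in KO in dorsal striatum at an adjusted p under 0.05: *Hdc*, *Plcl1*, *Prlr* and *Vwa5b1*. *Prlr*, the prolactin receptor, held 1 read in each WT dorsal striatum library and 3 and 112 reads in the KO ones, and *Vwa5b1* held 0 and 1 against 3 and 20. *Hsbp1l1* held no read in WT dorsal striatum, so its fitted value depends on the model and is not a fold. The cause of these differences was not tested.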

How the results depend on the processing

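The direction of *Hdc* and its side of the threshold were the same in all 14 alternatives. The 21 calls of KO against WT became 4 with the quasi-likelihood test, 5 with DESeq2, 13 with genes above 1 CPM in all 5 libraries and 12 in a fit of the 8 hypothalamus libraries, and ranged from 3 to 134 when 1 library was left out (7 without WT 1, 3 without KO 8, 134 without KO 7). Calls among list members, 4 in the report, became 0, 1 and 2 with the quasi-likelihood test (811 genes at an unadjusted p under 0.05), DESeq2 (424) and the 8 libraries, and 0 to 7 without 1 library. The 10 evenly shared calls became 5 with the filter on all 5 libraries and 4 to 12 without 1 WT library, 4 being without WT 1. A fit of the 5 libraries alone called 26 genes, 20 higher and 6 lower, of which 10 were among the 21 and 20 were evenly shared by both KO libraries. The 20 differences from striatum became 1 with the quasi-likelihood test, 6 with DESeq2 and 35 with library size alone, where 31.4% were higher against 60% and the median of all genes shifted to −0.24, and 1 to 85 without 1 library (12 without WT 2, 85 without KO 7, 1 without KO 8). Without KO 8, 3 called genes reversed, and leaving out 1 library at a time their log2 fold change ranged from −0.089 to 2.43 for *Nrgn*, −0.16 to 2.15 for *Mef2c* and −0.48 to 2.46 for *Kcnv1*. Single genes against WT were followed for 35 genes, of which 21 were called in the main fit. Of their values in the alternatives, 353 kept their side of the threshold, 115 lost a call and 9 gained one. The 353 include genes never called, while only called genes can lose a call. Every call but those of *Pla2g4e* and *Gm26917* was lost in at least 1 alternative. Against striatum 174 values kept their side and 84 lost a call. Of list medians 292 stayed within the spread and 44 moved. The cause was not tested.

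The mouse number as a replicate block could be fitted for the contrast with striatum, where it gave 15 genes, 12 of them among the 20. Libraries of different regions with the same number shared little of their deviation from the group means (mean r = 0.009 over 34 pairs, −0.08 to 0.097). Pairs with different numbers gave −0.005 over 56 pairs. Deviations within a group sum to 0, so this second value is tied to the first and is no separate baseline. No paired analysis was possible for KO against WT because the 2 genotypes share no number. With 3861785 to 4901109 counts a library, genes near 1 CPM rest on a few reads, and small differences there were not detectable at this depth.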

Other observations

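Some immediate early genes, which neurons switch on within minutes of firing, were high in the Het libraries, a group with no test here. *Fos* read 3.07, 10.6 and 5.00 CPM in WT, 2.61 and 4.05 CPM in KO and 16.8, 22.6 and 10.1 CPM in Het libraries. *Egr1* read 49.5, 108 and 73.0 CPM in WT, 56.9 and 145 CPM in KO and 188, 278 and 147 CPM in Het libraries, so that all 3 Het libraries were above every other one. The summed level of the 14 genes tested was 129.4 to 227.1 CPM in WT, 146.9 and 263.0 CPM in KO and 257.5 to 432.7 CPM in Het libraries, with KO 8 above the lowest of these. *Arc*, *Egr3* and *Npas4* were highest in KO 8, at 21.3, 14.3 and 11.3 CPM.

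*Vip*, a peptide of the suprachiasmatic nucleus, split the libraries across genotypes. It read 4.41, 0.511 and 4.28 CPM in WT, 4.78 and 2.77 CPM in KO and 0.369, 0.926 and 0.388 CPM in Het libraries, so that WT 2 was with the Het libraries, as it was for *Lhx8*. The myelin list was uneven within Het, with a summed level of 3616 to 6226 CPM there against 3936 to 4364 CPM in WT and 4226 and 4038 CPM in KO.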
